A study of Mus musculus with 8 samples.

Results

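The collagen alpha chain genes were followed in brachiocephalic arteries of mice lacking ApoE, a vessel near the heart where these animals develop plaques. They were taken as all rows of the deposited expression table whose symbol has the form Col, a number, a and a number, which gave 44 of 49585 genes. All mice were ApoE-deficient and were fed high-fat chow starting at 12 weeks old, so no group had normal lipids or a normal diet. The labels give neither the age at death nor the cells that remained around the vessel. 4 samples came from mice given the Dll1 blocking antibody (clone HMD1-5) and 4 from mice given non-immune IgG, each at 250 micrograms, 2 times per week, into the peritoneum. Dll1 is a ligand of the Notch receptors. The table's column names add a number, 045 or 076, whose meaning the sources used here do not give. In set 045, C1IA and C2IA received IgG while D1IA and D2IA received the antibody. In set 076, G1IA and G2IA received IgG, and its own D1IA and D2IA, distinct from those of set 045, received the antibody. The labels do not say that the samples were separate animals, so p-values reflect no more than how far these samples vary, possibly for technical reasons. In set 045 sex-linked genes, given below, show that libraries of the same treatment were not from the same animal.

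Collagens are secreted proteins built from 3 alpha chains wound into a triple helix. Fibrillar collagens, above all types I and III, give the arterial wall and the cap of a plaque their tensile strength. Type IV collagen forms the sheet-like network of basement membranes under endothelium and around smooth muscle cells. FACIT collagens lie on the surface of fibrils, and types II, IX, X and XI are best known from cartilage. Smooth muscle cells and fibroblasts make most of the collagen of a vessel.

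The members were sorted by type into 8 fibrillar, 6 basement membrane (type IV), 6 beaded filament (type VI), 6 FACIT, 2 network (type VIII), 2 multiplexin and 7 cartilage chains. A further 5 were anchoring or membrane-bound chains, and 2, Col26a1 and Col28a1, were placed in none of these. Levels below are TPM, a length-adjusted share of transcripts, rescaled so that nuclear protein-coding genes sum to 1000000 in each library. The rescaling was chosen because their share of all TPM was 0.848% to 3.10% in set 045 but 21.2% to 24.2% in set 076. A total of 39 members had a mean level of at least 1 over the 8 libraries and were tested among 18170 genes. The other 5 members, Col9a1, Col26a1, Col19a1, Col17a1 and Col25a1, lay below it.

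Depth and tissue content differed between the libraries. Reads recovered from the TPM steps numbered 11062677 to 13816416 per library, but those on protein-coding genes were 663099 to 2729071 in set 045 and 7422343 to 8070921 in set 076. Collagen reads numbered 9999 to 38649 in set 045 and 40442 to 99052 in set 076. Smooth muscle markers were present in all libraries, with Acta2 at 240 to 530 in set 045 and 1898 to 2284 in set 076. Xist, an RNA made by the inactive X chromosome, had levels of 262 in C1IA and 309 in D2IA of set 045 and of 2.33 or less in the other 6 libraries. Ddx3y, a Y-linked gene, was listed at 0 in those same C1IA and D2IA libraries and lay at 70.0 to 157 in the rest. Thus C1IA and C2IA of set 045 were not repeat libraries of the same animal, nor were its D1IA and D2IA. Within set 076 these genes did not separate the libraries.

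The chains of type IV collagen are encoded in head-to-head pairs that are transcribed away from each other. The promoters of Col4a1 and Col4a2 and of Col4a5 and Col4a6 are shown. The ratio of transcripts of Col4a1 to Col4a2 was 1.34 to 1.72 in all 8 libraries. That of Col4a5 to Col4a6 was 1.42 to 1.74 in set 076 and 3.26 to 11.3 in set 045, where Col4a6 had 2 to 27 reads. That of Col4a4 to Col4a3, another pair, was 1.67 to 5.64, and no promoter was held for Col4a3. The part of the promoters in these ratios was not tested. Each sequence runs 5′ to 3′ on the strand of its gene, from 250 bases before to 50 after the start in RefSeq (build GRCm38.p6), which held promoters for 35 of the 44 members. Col4a1 lies at chr8:11312777-11313076 on the minus strand and Col4a2 at chr8:11312555-11312854 on the plus strand. Col4a5 lies at chrX:141475169-141475468 on the plus strand and Col4a6 at chrX:141474027-141474326 on the minus strand. Capitals mark the motif CCAAT, the motif GGGCGG or the motif TATAAA on either strand.
Col4a1: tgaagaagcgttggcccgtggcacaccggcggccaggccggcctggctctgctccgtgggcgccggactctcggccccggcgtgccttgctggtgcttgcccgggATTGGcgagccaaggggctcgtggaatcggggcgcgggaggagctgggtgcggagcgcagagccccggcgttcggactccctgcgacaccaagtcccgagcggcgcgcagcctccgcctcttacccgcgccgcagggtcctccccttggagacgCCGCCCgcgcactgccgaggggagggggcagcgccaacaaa
Col4a2: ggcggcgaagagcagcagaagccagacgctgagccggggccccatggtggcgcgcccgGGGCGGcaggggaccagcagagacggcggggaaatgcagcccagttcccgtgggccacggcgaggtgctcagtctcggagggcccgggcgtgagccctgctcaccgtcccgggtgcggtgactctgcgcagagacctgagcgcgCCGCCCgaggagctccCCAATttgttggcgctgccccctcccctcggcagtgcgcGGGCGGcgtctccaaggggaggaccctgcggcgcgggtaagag
Col4a5: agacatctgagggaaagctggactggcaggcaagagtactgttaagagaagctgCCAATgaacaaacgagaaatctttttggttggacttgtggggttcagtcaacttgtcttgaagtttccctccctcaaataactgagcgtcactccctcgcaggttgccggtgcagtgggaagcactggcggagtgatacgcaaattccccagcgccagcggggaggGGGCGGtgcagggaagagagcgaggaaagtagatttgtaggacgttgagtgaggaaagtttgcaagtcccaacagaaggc
Col4a6: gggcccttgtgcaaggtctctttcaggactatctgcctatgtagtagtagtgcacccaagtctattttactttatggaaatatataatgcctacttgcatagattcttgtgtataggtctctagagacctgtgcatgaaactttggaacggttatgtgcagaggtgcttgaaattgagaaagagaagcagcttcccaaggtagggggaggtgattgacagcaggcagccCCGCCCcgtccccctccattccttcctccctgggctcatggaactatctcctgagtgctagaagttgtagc
The starts of Col4a1 and Col4a2 lay 21 bases apart, and their windows shared 78 bases read on opposite strands. Each start lay downstream of the other, so the 5′ ends of these genes overlapped. The starts of Col4a5 and Col4a6 lay 1343 bases apart, and their windows shared none. Col4a1 held CCAAT 1 time and GGGCGG 1 time, and Col4a2 held them 1 and 3 times. The GGGCGG of Col4a1 lies in the shared bases and is the same site as the last of the 3 in Col4a2. Col4a5 held each 1 time, and Col4a6 held GGGCGG 1 time and no CCAAT. None of the 4 windows held TATAAA. Over the 27025 genes in the RefSeq promoter table, 37.9% of windows held CCAAT, 35.9% GGGCGG and 14.2% TATAAA, against 12, 22 and 5 of the 35 members. A match is only a run of letters and was not tested for function.

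The summed level of all collagen chains varied more between libraries given the same treatment than between the treatments. Among libraries of set 045 it reached 8786 in C1IA and 3121 in C2IA (IgG) against 6539 in D1IA and 11720 in D2IA (antibody). For set 076 the sums were 5467 in G1IA and 2031 in G2IA (IgG) against 2551 in D1IA and 4244 in D2IA (antibody). In set 045 the treatments interleaved, with an antibody library highest and an IgG library lowest. In set 076 the IgG libraries lay at the top and the bottom, with both antibody libraries between them. The IgG libraries of a set differed 2.81-fold in set 045 and 2.69-fold in set 076. The means of the treatments differed less, with the antibody at 1.53 times the IgG mean in set 045 and 0.906 times in set 076. Counting error does not reach these gaps: collagen took 0.530% (95% Wilson interval 0.525% to 0.536%) of protein-coding reads in G2IA and 1.30% (1.29% to 1.30%) in G1IA. Such intervals cover counting error alone.

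The 4 libraries rich in collagen had these levels across most chains. They were picked by the sum of these same chains, so the counts that follow only describe how far its rise spread. Such counts were not made over all genes. In set 076, G1IA exceeded G2IA for 37 of the 39 tested members, by a median of 2.16-fold. There, D2IA exceeded D1IA for 33 members, by a median of 1.57-fold. In set 045, where C2IA had the lowest sum but was the highest library for 8 members, C1IA exceeded C2IA for 25 members. There, D2IA exceeded D1IA for 28. These C1IA and D2IA libraries are those with high Xist and with Ddx3y listed at 0, whereas G1IA and D2IA of set 076 do not stand apart in this way. Some other tissue markers moved with the collagen sum, and others did not. The macrophage markers summed to 7464, 4046, 7118 and 10589 in C1IA, C2IA, D1IA and D2IA of set 045, and to 10630, 4805, 5284 and 7162 in G1IA, G2IA, D1IA and D2IA of set 076. Within each set this is the same order of libraries as for collagen. Their most abundant gene, Lyz2, lay at 3626 to 9817. The adipocyte markers summed to 542, 2528, 2922 and 436 in set 045 and to 2528, 7410, 8375 and 5249 in set 076, so the collagen-rich libraries were low in them. The fibroblast markers, with Dcn the most abundant at 779 to 6308, summed to 1554, 2089, 1752 and 2161 in set 045 and to 9590, 11841, 10959 and 5169 in set 076, in another order. Smooth muscle markers summed to 634, 542, 910 and 957 in set 045 and to 4614, 3977, 4008 and 3547 in set 076. Their order also differed from that of collagen in both sets. The part of these tissues in the collagen levels was not tested. In whole tissue fewer cells of a type and less RNA per cell cannot be told apart.

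**Figure D1:**
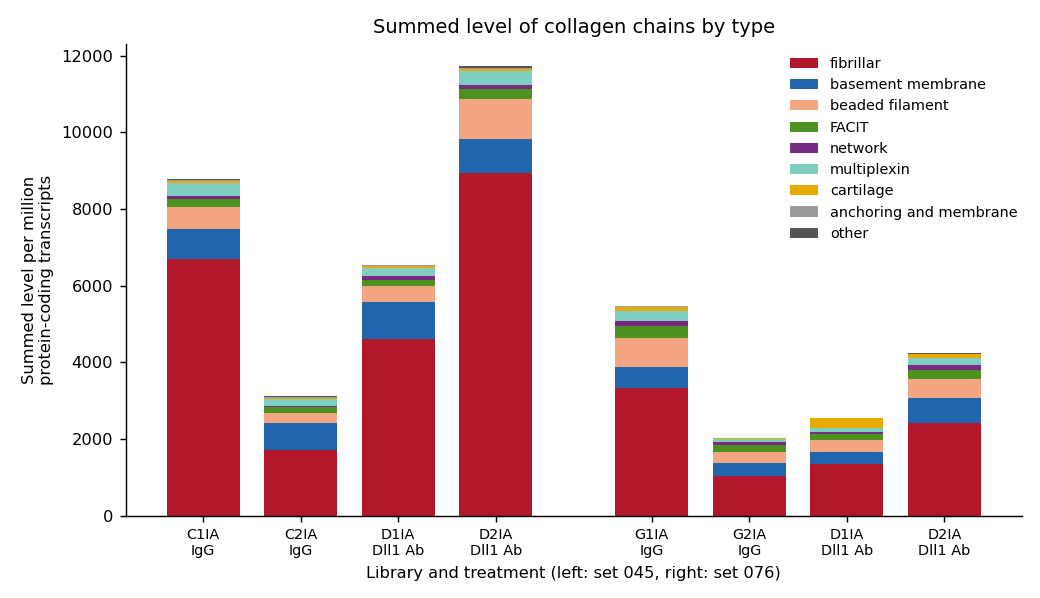
Summed level of the 44 collagen chains (per 1000000 protein-coding transcripts, vertical axis) in each of the 8 libraries, stacked by collagen type. The sums run from 2031 in G2IA of set 076 to 11720 in D2IA of set 045, and in each set IgG and antibody libraries overlap.

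Fibrillar chains made up most of the collagen transcripts, and type I and III chains most of those. Of the summed collagen TPM of a library, which needs no scaling between libraries, fibrillar chains took 76.3%, 54.8%, 70.5% and 76.3% in C1IA, C2IA, D1IA and D2IA of set 045. They took 61.0%, 51.0%, 52.3% and 57.1% in G1IA, G2IA, D1IA and D2IA of set 076. Basement membrane chains took 7.57% to 22.7% in set 045, with the highest share in C2IA, and 10.1% to 16.6% in set 076. Beaded filament chains took 6.34% to 8.92% in set 045 and 11.3% to 13.7% in set 076, with no overlap. FACIT chains also did not overlap between the sets, at 2.15% to 4.58% and 5.71% to 8.83%, nor did network chains, at 0.940% to 1.44% and 2.25% to 3.85%. Cartilage chains took under 1% in 5 libraries, 1.95% and 2.16% in G1IA and D2IA of set 076, and 9.99% in D1IA of set 076. Shares sum to a whole, so a higher share of 1 type lowers the others. They are a description, with no test. Without Col1a1, Col1a2 and Col3a1, fibrillar chains took a mean of 22.0% of the rest, against 62.4% with them.

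Col1a1 (ENSMUSG00000001506) and Col1a2 (ENSMUSG00000029661), the chains of type I collagen, were among the 3 most abundant members. For Col1a1, the IgG libraries of set 045 lay at 3282 and 681 against 2370 and 4587 for the antibody libraries. Those of set 076 lay at 1038 and 217 against 425 and 742. The means were 1305 ± 1360 with IgG and 2031 ± 1905 with the antibody (SD, n = 4 each). IgG and antibody libraries overlapped in both sets. Col1a2 followed the same order, at 915 and 246 against 617 and 1081 in set 045 and at 562 and 177 against 257 and 412 in set 076. Col3a1 (ENSMUSG00000026043), which forms the thinner fibrils mixed with type I, lay at 1488 and 427 in the IgG libraries against 970 and 2132 in the antibody libraries in set 045. In set 076 it lay at 1241 and 440 against 444 and 866. For all 3 genes G1IA was the highest and G2IA the lowest library of set 076, and D2IA the highest and C2IA the lowest of set 045.

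Type V chains are built into type I fibrils and limit their width. Col5a2 lay at 362 and 99.1 in the IgG libraries against 230 and 438 in the antibody libraries in set 045, and at 278 and 127 against 124 and 212 in set 076. Col5a1 lay at 297 and 138 against 264 and 494 in set 045, and at 170 and 53.0 against 54.4 and 135 in set 076. The treatments overlapped in both sets for both chains. The lowest library of set 076 was D1IA for Col5a2 and G2IA for Col5a1. Col5a3, the third chain of the family, stood apart in C1IA, at 338 and 90.2 against 82.7 and 167 in set 045, and lay at 27.4 and 10.2 against 13.2 and 40.1 in set 076. The 2 lesser fibrillar chains, Col27a1 and Col24a1, had mean levels of 26.7 and 2.89.

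Col4a1 (ENSMUSG00000031502) and Col4a2 (ENSMUSG00000031503), the chains of the basement membrane network found in almost every tissue, varied less than the type I chains. Col4a1 lay at 479 and 398 in the IgG libraries against 564 and 513 in the antibody libraries in set 045, and at 251 and 170 against 151 and 346 in set 076. Its highest and lowest libraries differed 1.42-fold in set 045 and 2.29-fold in set 076, against 6.74-fold and 4.78-fold for Col1a1. Col4a2 lay at 279 and 275 against 376 and 340 in set 045, and at 187 and 106 against 101 and 221 in set 076. In set 045 both antibody libraries lay above both IgG libraries for these chains, and in set 076 they did not. The other type IV chains were scarcer, with means of 30.9 for Col4a5, 15.2 for Col4a6, 5.26 for Col4a4 and 2.22 for Col4a3.

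Type VI collagen forms beaded filaments close to cells. Its chain of highest mean here was Col6a1, at 204. Col6a1 lay at 216 and 115 in the IgG libraries against 167 and 418 in the antibody libraries in set 045. In set 076 it lay at 275 and 111 against 142 and 188. Col6a3 and Col6a2 had means of 200 and 102, whereas Col6a4, Col6a5 and Col6a6 had means of 1.32 to 3.96. Among FACIT chains, Col14a1, which binds to the surface of type I fibrils, led with a mean of 135. Col8a1, a network collagen known from vascular smooth muscle and endothelium, had a mean of 90.3. The multiplexins Col18a1, whose end fragment is endostatin, and Col15a1 had means of 113 and 99.8.

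**Figure D2:**
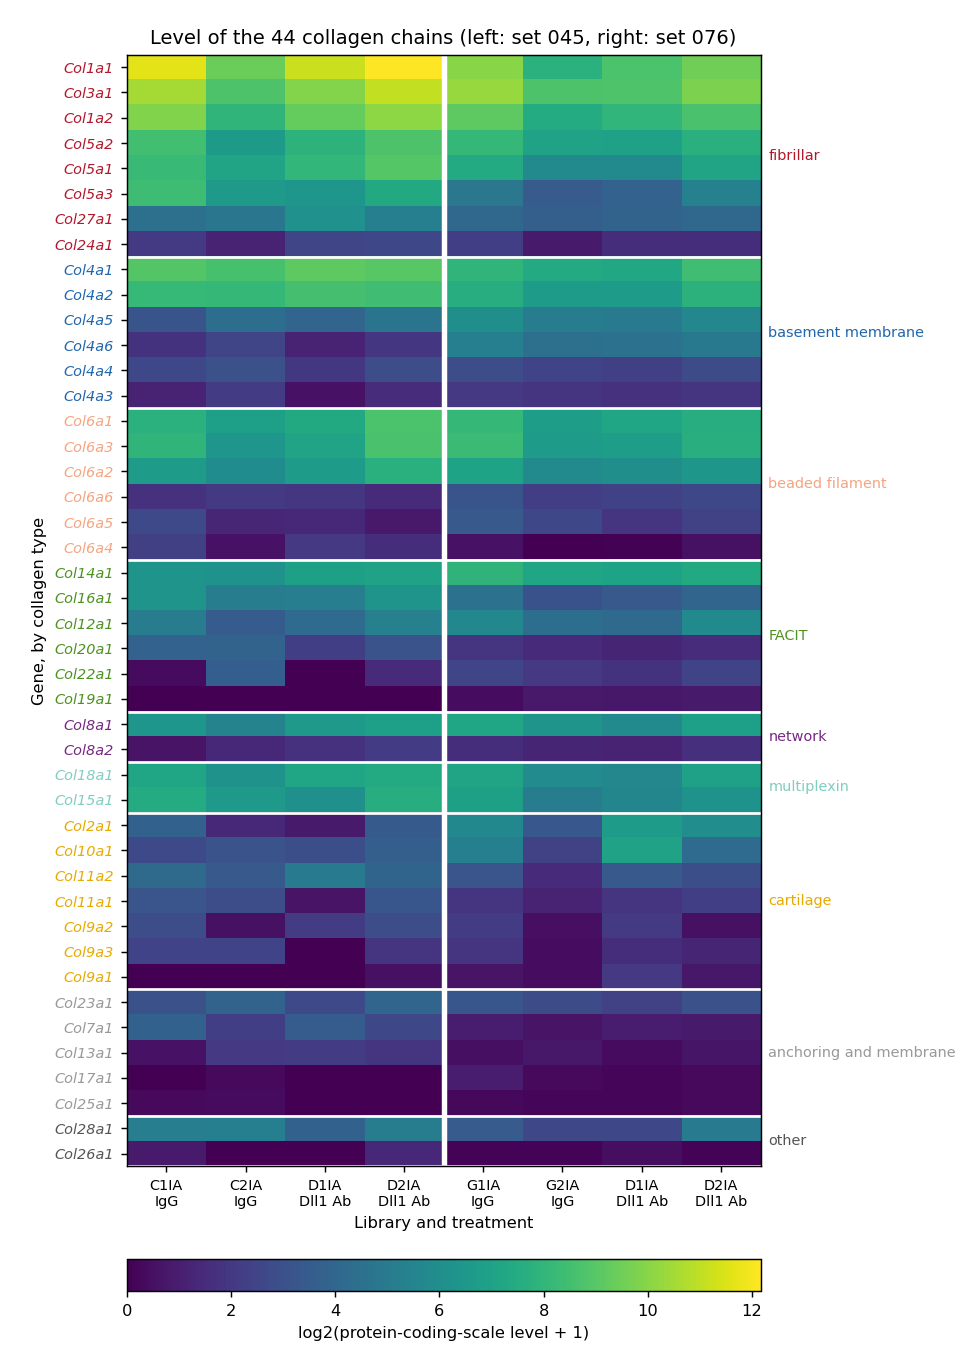
Levels of all 44 collagen chains (rows, ordered by type and mean level) in the 8 libraries (columns), as log2 of the protein-coding-scale level plus 1. Col1a1, Col3a1 and Col1a2 are the brightest rows, and the low rows of the anchoring and cartilage types include libraries listed at 0.

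No collagen chain passed the threshold for the treatment. Over both sets, with the set as a term, limma called 0 of 39 members, and percent called over all genes was 0%. At an unadjusted p under 0.05 there were 0 members, where 1.53% of all genes had one, and limma-voom on recovered reads also called 0. The median log2 difference, antibody minus IgG, was 0.19 over the members and -0.07 over all genes, with 25 members above 0 and 14 below. The median moved to -0.08 without C2IA and to -0.01 without D2IA of set 045. With TPM as deposited, where 23 members were tested, 6 lay above 0. Of the fibrillar chains 7 of 8 were above 0, of the type IV chains 3 of 6. The smallest p belonged to Col27a1, a fibrillar collagen of developing cartilage, with a log2 difference of 0.59 (SE 0.31, limma adjusted p = 1.00). Col1a1 had 0.69 (SE 0.64), with a 95% interval from -0.77 to 2.15. That of Col3a1 was 0.30, of Col1a2 0.41 (SE 0.52), of Col4a1 0.22 (SE 0.29) and of Col4a2 0.23. For Col1a2, Col3a1, Col4a1 and Col4a2 the sign was reversed under at least 1 alternative.

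Within set 045 limma called 0 of 39 members and 0% of all genes. Here 1 member, Col27a1, had an unadjusted p under 0.05 (7.99% of all genes had one). It lay at 21.3 and 26.5 in the IgG libraries against 70.9 and 37.6 in the antibody libraries, a log2 difference of 1.09 (SE 0.38, limma adjusted p = 0.578). Both antibody libraries lay above both IgG libraries. The members' median log2 difference was 0.41, against -0.13 over all genes. Without C2IA it was -0.05, with 18 of 39 members above 0, and without D2IA 0.20. With TPM as deposited it was -0.09, with 3 of 23 above 0. The antibody and IgG libraries did not overlap for 11 of 39 members, 28.2%, where 35% of all genes did not. Of these, Col24a1, Col27a1, Col8a2, Col4a1, Col4a2, Col6a2, Col14a1 and Col8a1 were higher with the antibody, and Col9a3, Col20a1 and Col28a1 were lower. A share below that of all genes is no result about collagens.

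Within set 076 limma called 0 of 39 members (0.011% of all genes were called), and 0 had an unadjusted p under 0.05 (0.897% of all genes). The members' median log2 difference was -0.12, against 0.00 over all genes, and its sign rested on single libraries. Without G1IA it was 0.44, with 34 of 39 members above 0, and without D1IA 0.16, with 32 above 0. Without G2IA it was -0.58, with 5 above 0, and without D2IA -0.34, with 9 above 0. The libraries of the treatments did not overlap for 3 members, Col4a3 and Col6a5, lower with the antibody, and Col2a1, higher, where 19% of all genes did not. Between the sets the treatment difference was called to differ for 0 members and 0% of all genes. The smallest p there was that of Col14a1, with log2 differences of 0.71 (SE 0.30) in set 045 and -0.33 (SE 0.30) in set 076, a gap of -1.03 (SE 0.43, limma adjusted p = 0.798). It lay at 77.3 and 72.2 in the IgG libraries against 119 and 126 in the antibody libraries in set 045, and at 240 and 146 against 133 and 167 in set 076. Treatments did not overlap in the same direction in both sets for any of the 39 members (0), where 2.11% of all genes did. Intervals were wide, with a median SE of 0.70 on the log2 scale within a set, so these counts do not show that the treatments acted alike on collagen.

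**Figure D3:**
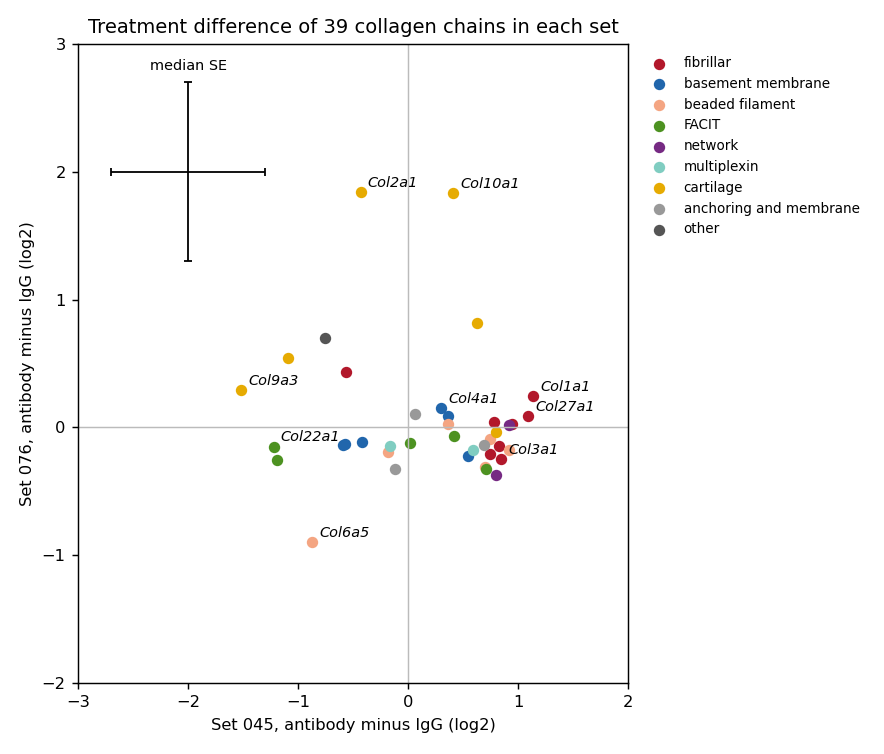
Log2 difference, antibody minus IgG, of the 39 tested collagen chains in set 045 (horizontal axis) and set 076 (vertical axis), 1 point per gene and coloured by type. The cross shows the median SE of 0.70 on both axes, and Col2a1 and Col10a1 lie highest in set 076, at 1.84 and 1.83, with adjusted p of 1.

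The cartilage chains were the type that single libraries marked most. Col2a1 (ENSMUSG00000022483), the fibril-forming collagen of cartilage, lay at 12.8 and 1.65 in the IgG libraries against 0.869, which is 1 read, and 9.78 in the antibody libraries in set 045. In set 076 it lay at 51.0 and 8.83 in the IgG libraries against 105 and 60.9 in the antibody libraries. Both antibody libraries of set 076 thus lay above its IgG libraries, while in set 045 the treatments overlapped. Its log2 difference was 1.84 (SE 1.17, limma adjusted p = 1) in set 076 and 0.70 (SE 0.87) over both sets. With TPM as deposited it was called in set 076 (1.69, SE 0.38, adjusted p = 0.00161), the 1 treatment call of any collagen under any alternative. That scaling called 0.68% of all genes in set 076, against 0.011% in the fit reported. Col10a1 (ENSMUSG00000039462), the collagen of hypertrophic chondrocytes, lay at 5.39 and 7.69 against 6.66 and 11.7 in set 045 and at 37.6 and 4.03 against 130 and 17.9 in set 076. D1IA of set 076 was far above the rest, and its log2 difference in that set was 1.83 (SE 1.13, adjusted p = 1), from 0.36 to 3.30 when 1 library at a time was left out.

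Of Col11a2 and Col11a1, minor chains of cartilage fibrils, the first shared the order of libraries of Col10a1 in set 076 and the other did not. Col11a2 lay at 17.3 and 9.53 against 29.8 and 14.0 in set 045 and at 8.38 and 1.79 against 9.65 and 6.59 in set 076. The sets overlapped, and 39 to 49 reads supported each library of set 045. Col11a1 lay at 8.22 and 6.29 against 0.539 and 8.60 in set 045 and at 2.69 and 1.26 against 2.69 and 3.81 in set 076. Col9a1, a FACIT chain that coats type II fibrils, was listed at 0 in C1IA, C2IA and D1IA of set 045. A count of 0 allows up to 1.43, 0.838 and 3.09 there (3 reads per library). It lay at 0.483 in D2IA of set 045 and, in set 076, at 0.551 and 0.332 in the IgG libraries against 3.05 and 0.718 in the antibody libraries. Thus D1IA of set 076 was the highest library for Col2a1, Col10a1 and Col9a1, and Col9a2 and Col9a3 did not exceed 6.32 in any library.

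Chondrocyte markers other than collagens moved with Col2a1 and Col10a1 in part. The 9 of them in the table summed to 41.7 to 67.1 in set 045 and to 389, 103, 311 and 208 in G1IA, G2IA, D1IA and D2IA of set 076. Chad, a chondrocyte matrix protein, made up 207 of the sum in D1IA and 170 in G1IA. D1IA of set 076 was also the highest library for Acan, at 30.5, Hapln1, at 23.7, Sox9, at 21.9, and Ucma, at 4.14. Comp went the other way there, at 22.9 against 161, 54.0 and 132 in G1IA, G2IA and D2IA. Matn1, Matn3 and Epyc were at or near 0 in all libraries, with at most 1.48. In D1IA of set 076 the osteoblast marker Ibsp lay at 620, against 229 at most elsewhere. The other osteoblast markers did not stand out in this way. Sp7 lay at 4.20 and Dmp1 at 2.94 in that library, against at most 4.00 and 2.65 elsewhere. Runx2 lay at 3.27 there, against 9.21 in G1IA of set 076, and Bglap and Bglap2 were listed at 0. Skeletal muscle markers summed to 3202 in D1IA of set 076, against 228 or less elsewhere. Heart muscle markers summed to 866, 148, 950 and 300 in G1IA, G2IA, D1IA and D2IA of set 076, the order of Col10a1 there. The parathyroid and thyroid markers summed to 934 in D1IA of set 076 and to 17.5 or less in the other libraries. The part of these tissues in the cartilage collagens was not tested.

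Between the sets 7 of 39 collagen chains passed the threshold, with the treatment as a term. This contrast is not 1 of the labels. Higher in set 076 was 1 member (2.56%, where 2.67% of all genes were called higher), and lower were 6 (15.4%, where 6.84% were). The median log2 difference, 076 minus 045, was -0.53 over the members and -0.27 over all genes. Scaling by the median of ratios moved the all-gene median to 0.04, and the calls split into 3 higher and 4 lower. Libraries of the sets did not overlap for 4 members that were higher in set 076, Col6a6, Col14a1, Col4a6 and Col4a5, where 6.41% of all genes were so. They did not overlap for 8 that were lower, where 14.6% of all genes were so. Leaving out C1IA, D2IA of set 045, G2IA or D1IA of set 076 in turn left 1 call each, and leaving out C2IA left 4. Calls over all genes fell too, from 9.52% to 2.64%, 3.82%, 0.893%, 0.796% and 3.44% in those fits. Leaving out both C1IA and D2IA of set 045, where Xist was high, also left 1, with 2.30% of all genes called, and the members' median became -0.00.

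Col4a6 (ENSMUSG00000031273), a type IV chain of smooth muscle and some epithelial basement membranes, was the call higher in set 076. It lay at 2.42, 4.79, 1.31 and 2.76 in set 045, from 2 to 27 reads, and at 37.7, 21.3, 22.8 and 28.8 in set 076, from 404 to 646 reads. Every library of set 076 lay above every library of set 045. The log2 difference was 2.95 (SE 0.36, limma adjusted p = 0.00656). It was called under all 19 alternatives run, with log2 differences from 2.05 to 3.35. Its neighbour Col4a5, the partner of Col4a6 in that network, lay at 7.89, 20.2, 14.7 and 24.4 and at 65.4, 33.2, 32.4 and 48.7, a log2 difference of 1.41 (SE 0.38, limma adjusted p = 0.0525), just outside the threshold. Smooth muscle markers were also higher in set 076, with 5 of 6 called, among them Cnn1 (3.74) and Tagln (2.89), and Smtn at 0.01. Their sum was 542 to 957 in set 045 and 3547 to 4614 in set 076. Within set 045 Col4a6 was highest in C2IA, where that sum was lowest. Other lists were higher too, with 4 of 7 fibroblast and 2 of 5 heart muscle markers called, while 1 of 5 endothelial markers was called lower. The part of these tissues in the difference was not tested.

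The 6 members called lower in set 076 came from several types, and all lay in the group of highest GC content described below. Col5a3 had a log2 difference of -2.80 (SE 0.56, limma adjusted p = 0.0261), with the levels given above. Col7a1, which anchors basement membranes to stroma, lay at 12.6, 3.85, 10.6 and 5.23 in set 045 and at 0.572 to 0.905 in set 076, a difference of -2.22 (SE 0.49, adjusted p = 0.0330). Col16a1, a FACIT chain, lay at 78.5, 34.8, 36.3 and 77.2 against 22.7, 7.35, 9.46 and 14.9, or -1.99 (SE 0.42, adjusted p = 0.0298). Col20a1, another FACIT chain, lay at 13.2, 13.8, 3.73 and 7.58 against 2.66, 1.70, 1.36 and 1.95, or -1.74 (SE 0.43, adjusted p = 0.0417). Its values in set 045 rested on 3 to 41 reads. Col27a1 in set 076 lay at 15.8, 11.9, 13.8 and 15.5, a difference of -1.25 (SE 0.31, adjusted p = 0.0410). Col4a1 differed by -1.15 (SE 0.29, adjusted p = 0.0443), and Col4a2, with -1.11 (SE 0.30, adjusted p = 0.0505), lay just outside. Under the alternatives Col4a1 missed the threshold in 11, Col27a1 in 10, Col20a1 in 9, Col16a1 and Col5a3 in 7 and Col7a1 in 6. Col4a1, Col27a1, Col16a1 and Col5a3 were each also reversed in 1. Col1a1 had -2.10 (SE 0.64, adjusted p = 0.0752) and was not called, though it was called lower under 2 alternatives. Without C1IA and D2IA of set 045 its difference was -1.30. All 8 fibrillar chains lay below 0, with a median of -1.10, where only 36.0% of all genes lay above 0.

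**Figure D4:**
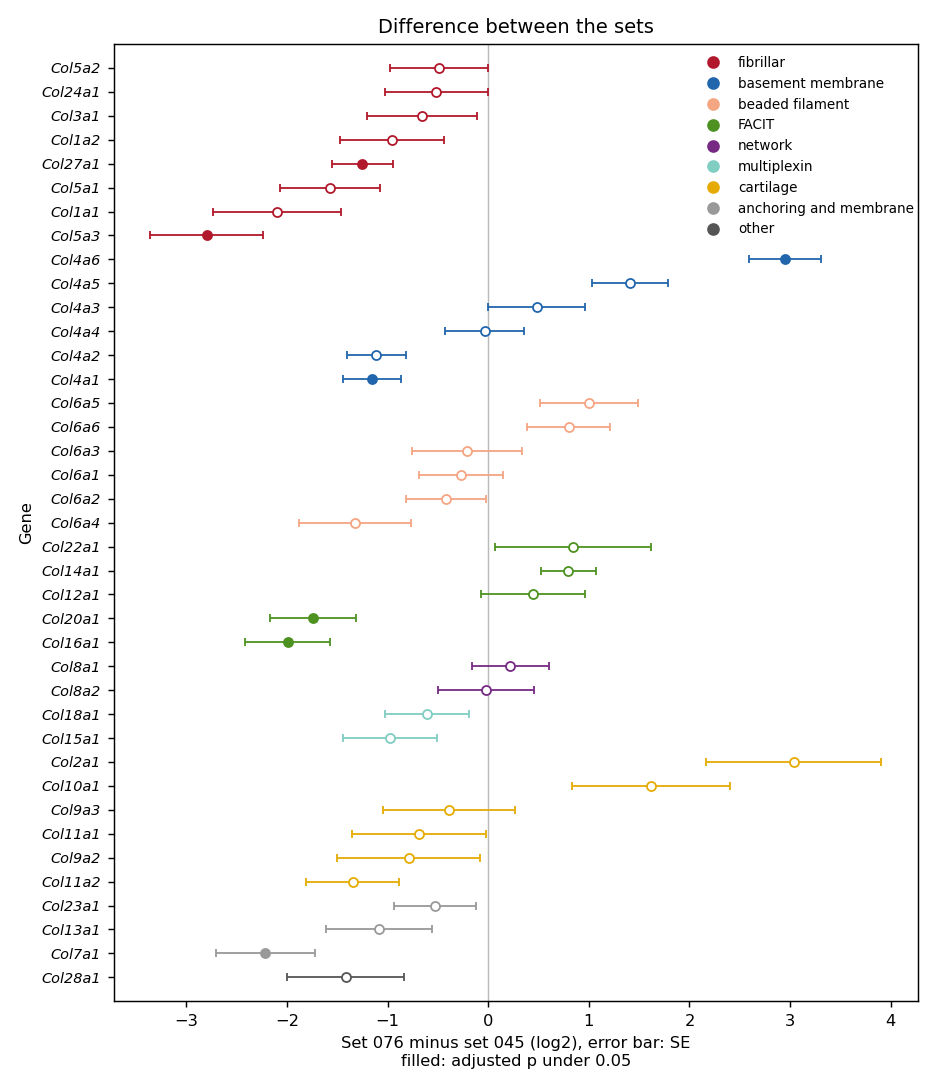
Log2 difference between the sets, 076 minus 045, for the 39 tested collagen chains, grouped and coloured by type, with SE bars. Filled points are the 7 with an adjusted p under 0.05, of which Col4a6, at 2.95, is the 1 above 0.

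The difference between the sets followed base composition across genes. Over 14810 protein-coding genes, which are not independent replicates, it correlated with the GC content of the longest transcript at a Spearman rho of -0.37 (Pearson -0.31). In the 5 equal groups of genes ordered by GC content the median log2 difference went from 0.07 in the lowest to -0.78 in the highest. Collagen messages are rich in GC, since glycine and proline have GC-rich codons. No tested member fell in the lowest group, and 18 of 39 fell in the highest, of 55.7% GC or more. All 6 members called lower in set 076 were among those 18. In that highest group 635 of 2962 genes were called lower, against 11 of 2962 in the lowest. Over the 39 members rho was -0.49 (Pearson -0.41). Against the median of its own GC group, the median member lay at -0.05, with 21 of 39 below. On that measure Col4a6 lay at 3.42 and Col2a1 at 3.81 above their groups, and Col5a3 at -2.02 and Col1a1 at -1.32. Col4a1 lay at -0.38 and Col27a1 at -0.47, smaller than their differences of -1.15 and -1.25. The part of base composition in the calls was not tested.

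Ratios between chains within a library need no scaling and showed which chains kept step. Col4a1 to Col4a2 was between 1.45 and 1.72 in set 045 and between 1.34 and 1.61 in set 076. This was the pair with overlapping promoter windows shown above. Col6a1 to Col6a2 stayed between 1.61 and 2.18, and Col3a1 to Col1a2 between 1.57 and 2.49. The 2 chains of type I collagen did not keep step between the sets. Col1a1 to Col1a2 was 3.59, 2.77, 3.84 and 4.24 in set 045 and 1.85, 1.23, 1.66 and 1.80 in set 076, with no overlap. The type I molecule most common in tissue holds 2 chains from Col1a1 and 1 from Col1a2. The TPM ratio divides reads by the gene lengths used, 6563 bases for Col1a1 and 12137 for Col1a2. Their longest transcripts have 5930 and 5348 bases, so the height of the ratio cannot be read against these chain numbers. The GC content of the Col1a1 transcript was 58.9% and that of Col1a2 55.7%. Col3a1, at 52.5% GC, stood to Col1a1 at 0.409 to 0.628 in set 045 and 1.04 to 2.03 in set 076. Col4a5 to Col4a6 was 3.26, 4.22, 11.3 and 8.84 in set 045, where Col4a6 had few reads, and 1.42 to 1.74 in set 076. Col4a4 to Col4a3 was 2.03 to 5.64 in set 045, from 1 to 25 reads of Col4a3, and 1.67 to 2.26 in set 076. Within a set, IgG and antibody libraries overlapped for Col4a1 to Col4a2 in both sets. For Col3a1 to Col1a2 they overlapped in set 045, while in set 076 both antibody libraries, at 1.73 and 2.10, lay below the IgG libraries, at 2.21 and 2.49. For Col1a1 to Col1a2 they overlapped in set 076, while in set 045 both antibody libraries were higher. Other pairs separated too. Col5a1 to Col5a3 was 0.880 and 1.53 (IgG) against 3.19 and 2.95 (antibody) in set 045. Set 076 showed the reverse, 6.19 and 5.17 against 4.12 and 3.36. Col4a5 to Col4a6 separated only in set 045, and Col6a1 to Col6a2 and Col3a1 to Col1a1 only in set 076. Levels separated for 35% of all genes in set 045 and 19% in set 076. No such share was counted for ratios, so these separations are no result about the treatment.

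**Figure D5:**
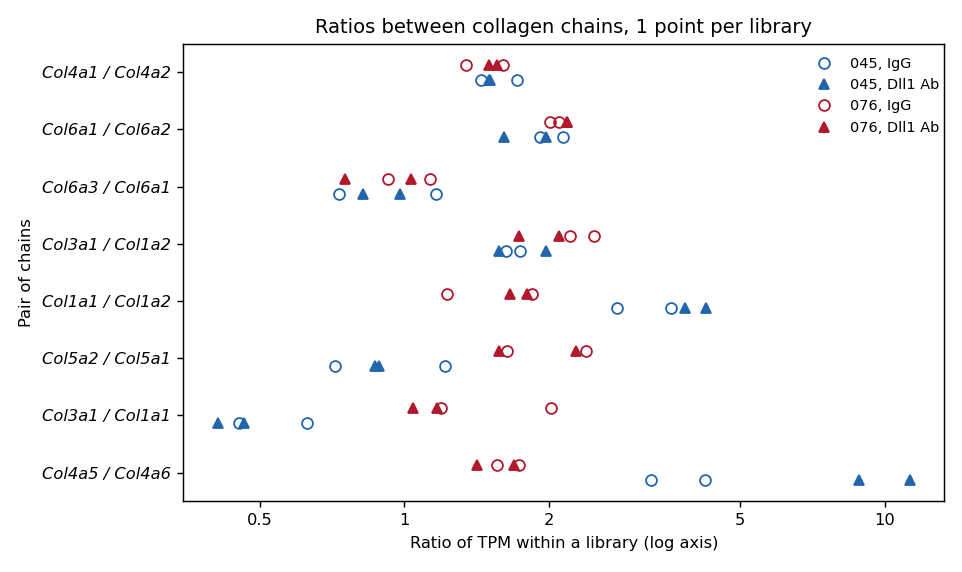
Ratio of TPM between pairs of collagen chains within each of the 8 libraries (log axis), with colour for the set and marker for the treatment. Col4a1 to Col4a2 lies between 1.34 and 1.72 in all libraries, whereas Col1a1 to Col1a2 separates the sets, at 2.77 to 4.24 and 1.23 to 1.85.

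Genes that modify, process, crosslink, bind or degrade collagen were read from lists beside the chains. None was called for the treatment, over both sets or within either. By limma 0 of 20 tested genes for hydroxylation and chaperones, 0 of 8 for propeptide processing, 0 of 5 crosslinking enzymes, 0 of 10 receptors and 0 of 10 for degradation were called over both sets. Their median log2 differences were 0.07, -0.14, -0.01, -0.16 and 0.08. The summed level of the hydroxylation and chaperone list was 1750 and 1448 in the IgG libraries against 1358 and 2045 in the antibody libraries in set 045, and 1798 and 1258 against 1295 and 1712 in set 076. In set 076 this was the order of the collagen sum. The crosslinking list, lysyl oxidases, summed to 267 and 163 against 205 and 338, and to 452 and 251 against 232 and 398.

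Between the sets 4 of 10 tested genes of the degradation list were called higher in set 076 and 0 lower (median 1.19), where 2.67% of all genes were called higher. Mmp13, a collagenase, lay at 6.88 to 26.1 in set 045 and 127 to 351 in set 076, a log2 difference of 3.88 (SE 0.44, limma adjusted p = 0.00564). Ctsk, a lysosomal protease that cleaves collagen, lay at 109 to 238 and 460 to 849, a difference of 1.85 (SE 0.31, adjusted p = 0.0166). Fap, a fibroblast protease, and Timp3, an inhibitor of metalloproteinases, were the other two. In the hydroxylation and chaperone list 1 of 20 was called higher, Ppib (0.66, SE 0.17, adjusted p = 0.0462). Among receptors 1 of 10 was, Itgb1, the common beta subunit of collagen-binding integrins (1.03, SE 0.22, adjusted p = 0.0322). Propeptide processing and crosslinking had 0 calls in either direction. Of the fibroblast markers 4 of 7 were called higher in set 076, among them Lum (4.00, SE 0.43, adjusted p = 0.00504) and Dcn (2.24, SE 0.33, adjusted p = 0.0111), both small proteoglycans that bind collagen fibrils.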

How the data were processed

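RNA was extracted with TRIZOL, depleted of ribosomal RNA and made into strand-specific libraries, per the labels' protocols. The authors deposited 1 table of TPM for 49585 genes in 8 libraries, each column summing to 1000000. No aligner, counter or annotation is named for it (not given in the sources used here). The submitters' processing notes name the human build hg19, while the table lists mouse Ensembl identifiers, so no coordinates are drawn from them. Column names give the treatment and set but not the labels' sample numbers.

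From the deposited TPM, each library was rescaled by its sum over protein-coding genes outside the mitochondrial genome (GENCODE M21 types). Differences were tested with limma 3.58.1 (R 4.3.3), two-sided, on log2(value + 1) with trended, robust empirical Bayes, keeping 18170 genes whose mean reached 1, Benjamini-Hochberg adjusted over all of them at 0.05. The log2(value + 1) scale understates changes of low genes. The fit over both sets had 5 residual degrees of freedom. Contrasts within a set came from 1 fit of all 8 libraries with 2 per cell, which shares the spread. Multiplying TPM by exon length gave whole numbers of reads for 25386 of 25386 genes above 0 (100%, relative tolerance 1e-05), with 5682 lengths derived from the steps, among them those of 10 members. limma-voom on these reads was an alternative, since TPM is not counts. A run of the fit on simulated reads, without differences in tissue content within a set, checked the code alone. It says nothing about the power of these comparisons.

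By the rule for named genes, values per library are given for the 8 members of highest mean, Col4a1, Col4a2, Col2a1, Col9a1, Col10a1, Col11a1, Col11a2 and the members called. Genes outside the collagens are those of fixed lists, the 2 of smallest p in a list and the most abundant marker. Exceptions named after their values were seen are Col4a5, Col14a1, Col6a6, other members of small counts, Chad, Ibsp and the other osteoblast markers, Xist and Ddx3y. The members, lists and tests were chosen with earlier results of these data known. Alternatives were other scalings, pseudocounts, filters, variance models and libraries left out.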

Additional observations from a re-analysis of the deposited data

Results flagged for a closer look

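In a group of 4 libraries, a value was singled out when its gap to the next took most of the group's range (Dixon's 95% critical value), which chance gives for about 1 in 20 groups. Among 98 groups looked at, 5 values were singled out, all levels on the protein-coding scale. Col10a1 stood out in both treatments, at 37.6 in IgG library G1IA of set 076, where the next was 7.69, and at 130 in antibody library D1IA of set 076, where the next was 17.9. Col6a4 lay at 3.96 in IgG library C1IA of set 045, from 14 reads, against 0.498 or less in the other IgG libraries. Col13a1 lay at 3.07 in IgG library C2IA of set 045, from 10 reads, against 0.730 or less. Col6a1 lay at 418 in antibody library D2IA of set 045, against 188 or less in the other antibody libraries. No treatment effect on a collagen chain was called to differ between the sets.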

How the results depend on the processing

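No treatment comparison called a collagen chain under any alternative except set 076 with TPM as deposited, which called 1, Col2a1 (log2 difference 1.69). That alternative called 0.68% of all genes in set 076, against 0.011% in the fit reported. The set comparison, with 7 calls, moved most: TPM as deposited gave 21 of 23 tested, all higher in set 076, where 95% of all genes were called and their median was 2.17. It gave 3 without a filter (3.60% of all genes called), 3 without trend and robust steps (4.25%), 14 with array weights (33.2%), 10 with limma-voom (13.6%), against 9.52% in the fit reported, and 1 to 8 with 1 library left out. It gave 1 without C1IA and D2IA of set 045, an alternative chosen after seeing the data, as was that with protein-coding genes only, which gave 9. With TPM as deposited the set difference was reversed for Col27a1 (1.38), Col16a1 (0.96), Col4a1 (2.43), Col5a3 (0.61) and Col1a1 (1.60). The treatment difference over both sets was reversed for Col3a1 (-0.11), Col4a1 (-0.16) and Col4a2 (-0.15) with TPM as deposited, with or without the set as a term, and for Col4a1 with array weights (-0.023). With 1 library left out it ranged from -0.039 to 0.82 for Col1a2, -0.17 to 0.71 for Col3a1 and -0.0052 to 1.44 for Col2a1. In set 045 Col14a1 was reversed with TPM as deposited (-0.10). Beyond the scaling, the cause was not tested. The fibrillar share moved from 62.4% to 22.0% without Col1a1, Col1a2 and Col3a1, and was 67.1% of recovered reads. Where leaving out a library left 1 in a cell, it was assumed to vary like the others. Low chains of set 045 rest on few reads. No paired analysis was possible because the columns do not carry the replicate numbers of the labels.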
